A study of Caenorhabditis elegans with 2 samples.

Results

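The genes eel-1, wwp-1, ubr-5 and hecw-1 encode ubiquitin ligases of the HECT family in Caenorhabditis elegans. They are 4 of the 19973 annotated protein-coding genes and 4 of 9 HECT genes listed here. Peaks of the tagged zinc finger protein Y95B8A.8, whose gene is also named zfr-1, were taken as theirs where the summit lay within 1000 bp of any annotated 5′ end of the gene. By that rule 6 of 1694 peaks belonged to the 4 genes. The genes were chosen by their peaks in these lists, so position, signal and rank are given as a description with no test.

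The measurement was chromatin immunoprecipitation followed by sequencing, which recovers the DNA that a protein sits on. All animals were of strain RW12277, which carries the allele st12277, a CRISPR insertion of TY1, EGFP and 3xFLAG tags into Y95B8A.8 at its own locus. Whole young adults were taken at an age of 63 hours, having been synchronised by bleaching and starvation as L1 larvae. The chromatin was sonicated to a size range of 200 to 800 bp, and an antibody to GFP was used, though the labels' antibody field names Y95B8A.8. The labels give 1 group of 2 samples, biological replicates 1 and 2, with no untagged or second group, and the use of whole animals leaves the tissue of binding unknown. The control library was not analysed here, and the read depth behind the peak lists is unknown.

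HECT ligases take ubiquitin from a conjugating enzyme (E2) onto a cysteine of their own and then pass it to the substrate, whereas RING ligases only bring the E2 and the substrate together. The human relative of EEL-1 is HUWE1, a very large ligase, and in worms EEL-1 is known for its action in embryos and neurons. WWP-1 belongs to the NEDD4 type, which binds substrates through WW domains, and is known for its part in the lifespan response to dietary restriction. HECW-1 is related to human HECW1 and HECW2 and has been studied in sensory neurons that affect pathogen avoidance.

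The sequences under the eel-1 and hecw-1 peaks are shown because each holds repeated sequence of some kind: tandem repeats at eel-1, a transfer RNA gene at 1 hecw-1 peak and an inverted repeat in AT-rich sequence at the other. All are the plus strand of assembly WBcel235 (ce11) from RefSeq, written 5′ to 3′, while both genes lie on the minus strand. In the eel-1 peaks, capitals mark the word AAAAGGGG or its reverse complement CCCCTTTT. In hecw-1 site 1 they mark the transfer RNA gene C56G7.t1, and in hecw-1 site 2 a 17-base stretch and its reverse complement. That stretch is the longest in hecw-1 site 2 whose reverse complement is also there. The other sites were not searched within themselves in this way. Sites are numbered by falling signal. Their positions are chrIV:3050365-3050574 and chrIV:3050755-3051044 for eel-1 sites 1 and 2, and chrIII:3389392-3389681 and chrIII:3390203-3390492 for hecw-1 sites 1 and 2.
eel-1 site 1: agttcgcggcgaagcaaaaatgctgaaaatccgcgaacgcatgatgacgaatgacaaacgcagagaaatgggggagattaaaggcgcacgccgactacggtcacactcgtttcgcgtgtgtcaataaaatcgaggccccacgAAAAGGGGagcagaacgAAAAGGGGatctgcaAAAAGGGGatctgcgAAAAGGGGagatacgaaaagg
eel-1 site 2: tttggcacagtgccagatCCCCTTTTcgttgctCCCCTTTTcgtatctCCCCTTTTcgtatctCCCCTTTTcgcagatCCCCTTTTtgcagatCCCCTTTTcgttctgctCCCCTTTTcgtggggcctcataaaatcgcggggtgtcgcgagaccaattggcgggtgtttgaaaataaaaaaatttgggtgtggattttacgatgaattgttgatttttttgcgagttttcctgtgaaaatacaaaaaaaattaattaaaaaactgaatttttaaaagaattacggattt
hecw-1 site 1: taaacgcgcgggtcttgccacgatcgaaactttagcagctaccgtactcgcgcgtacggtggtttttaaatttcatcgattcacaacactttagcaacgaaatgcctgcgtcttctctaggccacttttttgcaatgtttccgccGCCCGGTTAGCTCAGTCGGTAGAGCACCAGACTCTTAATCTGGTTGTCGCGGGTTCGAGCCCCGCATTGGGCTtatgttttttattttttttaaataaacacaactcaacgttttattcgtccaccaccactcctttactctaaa
hecw-1 site 2: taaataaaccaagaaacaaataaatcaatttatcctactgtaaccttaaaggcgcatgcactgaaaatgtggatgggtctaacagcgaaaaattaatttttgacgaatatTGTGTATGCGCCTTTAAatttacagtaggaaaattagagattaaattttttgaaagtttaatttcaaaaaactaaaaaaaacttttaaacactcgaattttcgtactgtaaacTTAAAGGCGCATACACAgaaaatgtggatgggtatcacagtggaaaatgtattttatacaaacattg

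The 2 eel-1 peaks hold the same repeat in opposite orientation. Site 1 has the word AAAAGGGG 4 times and its reverse complement 0 times, and site 2 has the reverse complement 7 times and the forward word 0 times. The longest stretch of site 1 whose reverse complement is in site 2 is 79 bases long, at positions 3050496 to 3050574 in site 1 and 3050805 to 3050883 in site 2. Only sequence inside the called peaks was searched, and the stretch ends at the last base of the site 1 peak. Its length is therefore not that of the whole repeat. That stretch occurs 25 times in the genome on either strand. Of all 1694 thresholded peaks, 1.77% hold the word within 50 bp of the summit, as do 0.621% of 19973 windows of the same length centred 200 bp upstream of a gene's outermost 5′ end. The word was picked from the eel-1 peaks themselves, so these shares only place it.

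Binding at eel-1 was among the strongest in the data. The gene (WBGene00022069) spans positions 3032713 to 3050104 on chromosome IV, and the summit of site 1 lay 376 bp upstream of its outermost 5′ end, in sequence with no annotated gene. Signals are the authors' own peak caller output, on a scale that the labels and file headers leave out, and levels are compared within a list. Values of both replicates are set side by side, and their ratios are read against the ratio over all matched peaks, since the lists may differ in scale. At site 1 it was 385 in the thresholded list of both replicates, which ranked it 9 of 1694 in a list with a median of 78.6. The rank neighbours were rpl-35, cdc-48.1 and mog-4 just above, with signals of 426, 416 and 387, and rpa-2 just below with 383, a peak at 373 with no 5′ end within 1000 bp, and then K08F11.1 with 355. rpl-35 encodes a ribosomal protein, and CDC-48.1 is the AAA ATPase that extracts ubiquitylated proteins.

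Site 1 of eel-1 held the same place in both replicates. The signal was 197 in replicate 1 and 190 in replicate 2, rank 12 in each ranked list, of 46119 and 44169 peaks. The summits in the replicates lay 3 and 2 bp from the joint summit.

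Site 2 of eel-1 was weaker and less even. Its summit lay 796 bp upstream of the 5′ end, 420 bp from that of site 1, and 180 bases separate the peaks. Its signal of 77.7 ranked 881, close to the list's median. It was 59.1 in replicate 1 and 34.5 in replicate 2, with ranks of 397 and 1622. The score, which follows from the irreproducible discovery rate (IDR) and reaches 1000 at most, was 1000 in replicate 1 and 809 in replicate 2. The lowest score in a thresholded list is 830, an IDR of 0.01, so site 2 was in the thresholded list of replicate 1 and not in that of replicate 2.

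**Figure D1:**
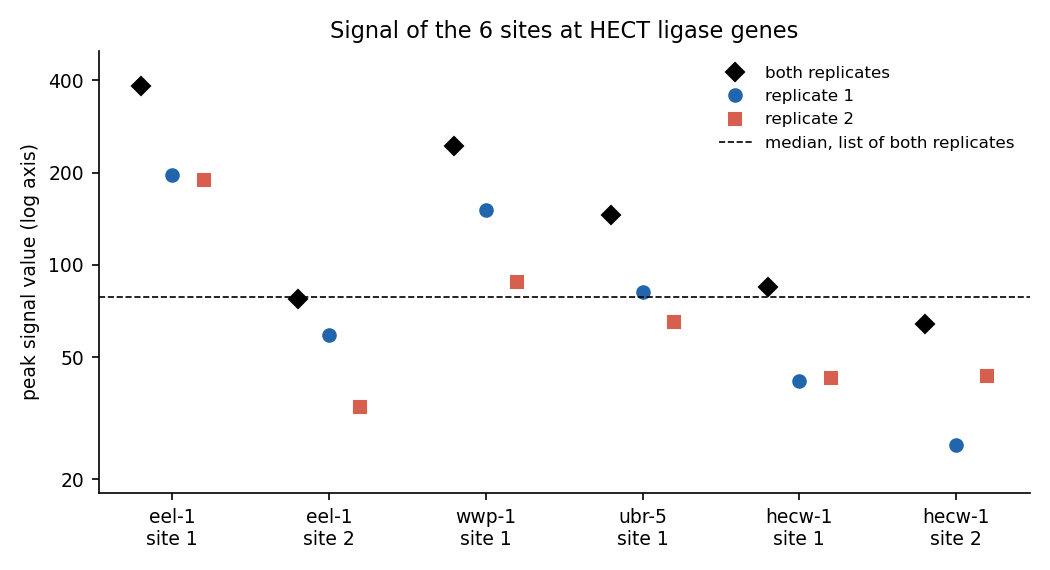
Peak signal (log axis) of the 6 sites called on both replicates (diamonds), on replicate 1 (circles) and on replicate 2 (squares), with a dashed line at the median of 78.6 of the list of both replicates; the scales of the lists are separate. The eel-1 site 1 values in the replicates, 197 and 190, nearly coincide, while those of wwp-1, eel-1 site 2 and hecw-1 site 2 lie apart.

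The wwp-1 site was the second strongest of the 6. The gene (WBGene00007009) spans positions 537122 to 542204 on chromosome I, plus strand, and the peak covers 536808 to 536924 with its summit 283 bp upstream of the 5′ end. The whole peak lay in the annotated noncoding RNA Y65B4BR.10, at 536804 to 536931 on the minus strand, between wwp-1 and icd-2. The summit, at 536839, was nearer to the 5′ end of Y65B4BR.10 at 536931 than to that of wwp-1. Only 5′ ends of protein-coding genes were used to assign peaks, so this peak cannot be assigned to wwp-1 alone. The peak's signal of 245 ranked 40 of 1694. It was 151 in replicate 1, rank 28, and 88.3 in replicate 2, rank 126.

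The neighbour icd-2, which encodes the alpha subunit of the nascent polypeptide-associated complex and ends 535 bp before wwp-1 begins, had a peak of its own. It lay 348 bp upstream of icd-2 and 1679 bp upstream of wwp-1, outside the window, with a signal of 170 at rank 103. This peak had 77.2 in replicate 1 and 93.6 in replicate 2, the opposite order to the wwp-1 peak. A peak 236 bp past the 3′ end of wwp-1 had a signal of 63.2. Its score was 851 in the conservative thresholded list, and the thresholded list of both replicates did not hold it, with a score of 799 in the ranked list.

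A single peak lay at ubr-5. The gene (WBGene00009460) spans positions 8828010 to 8838719 on chromosome I, minus strand, and the peak covers 8839123 to 8839412 with its summit 549 bp upstream of the outermost 5′ end. The summit also lay 900 bp from the 5′ end of the divergent neighbour F29D10.1, so the peak falls in the window of both genes. Its signal of 146 ranked 168 of 1694. It was 81.4 in replicate 1, rank 155, and 65.1 in replicate 2, rank 256.

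Of the 4 genes hecw-1 had the weakest best site, and neither of its sites can be assigned to hecw-1 alone. The gene (WBGene00009738) spans positions 3377396 to 3389970 on chromosome III, minus strand. The gene elmd-1 (3389919 to 3392525, plus strand) overlaps its 5′ end. Site 1 had its summit 433 bp downstream of the hecw-1 5′ end, in the first intron of that isoform, and 382 bp upstream of elmd-1. Site 2 had its summit 378 bp upstream of hecw-1, inside an intron of elmd-1 and 306 bp upstream of a later elmd-1 5′ end. With each peak given only to the nearest protein-coding gene, both sites went to elmd-1 and 3 of the 4 genes kept a peak.

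The summit of hecw-1 site 1, at position 3389537, is the first base of C56G7.t1, a lysine transfer RNA gene of 73 bases on the plus strand. That position is also in the annotated noncoding RNA C56G7.4, at 3389532 to 3389628 on the minus strand. The summit was at 3389515 in replicate 1 and at 3389541 in replicate 2. The site had a signal of 85.0 at rank 708. It was 41.7 in replicate 1 and 42.9 in replicate 2, with scores of 791 and 624, both under 830. The site was in neither replicate's thresholded list, while its score was 1000 with both replicates together. The replicates were close in signal, with ranks of 1012 and 784.

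Site 2 of hecw-1 had the lowest score of the 6 sites and differed most in rank between the replicates. Its signal of 64.1 ranked 1335, with a score of 983, where the other 5 sites had 1000. It was 25.9 in replicate 1, with a score of 64 and rank 5319, and 43.5 in replicate 2, with a score of 729 and rank 755. In the conservative ranked list its score was 820, and it was the only 1 of the 6 sites that the conservative thresholded list did not hold.

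**Figure D2:**
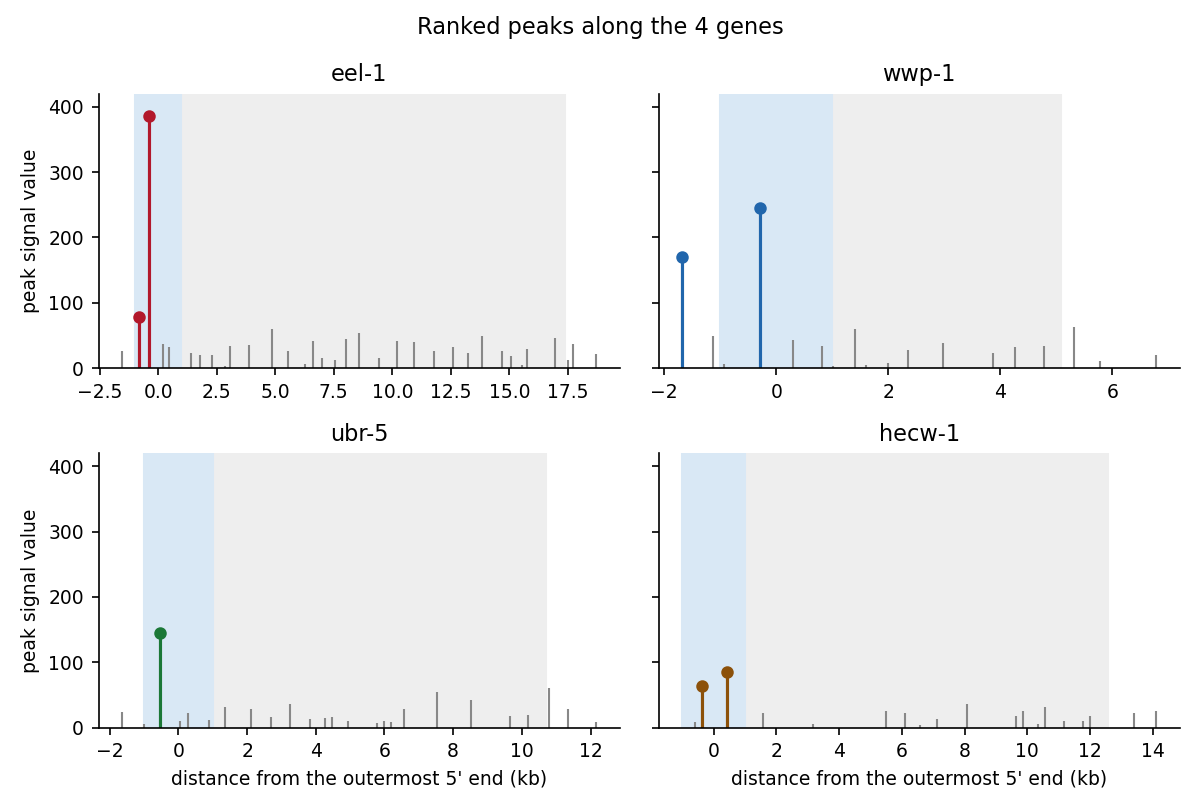
Signal of every ranked peak of both replicates along the 4 genes, by distance from the outermost 5′ end in kb; blue shading is 1000 bp on each side of that end, grey shading the gene, and coloured dots have a score of at least 830. At each gene the dots lie near the 5′ end, and the second wwp-1 dot is the icd-2 peak with a signal of 170.

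In their bodies, away from the 5′ ends, the 4 genes had only peaks under the score of 830, with less signal than any of their 6 sites. In the eel-1 body, more than 1000 bp from any 5′ end, 26 ranked peaks had signals of 3.15 to 60.0 with a median of 26.7. The 16 in ubr-5 reached 55.2, the 11 in hecw-1 reached 35.9 and the 4 in wwp-1 reached 34.7. None of them was in the thresholded list, where 0 peaks fell in these bodies. The highest score among them was 649, in eel-1.

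The order of the best sites was the same in both replicates: eel-1, then wwp-1, ubr-5 and hecw-1. The gap between wwp-1 and ubr-5 was narrower in replicate 2, with 88.3 against 65.1, than in replicate 1, with 151 against 81.4. Replicate 1 over replicate 2 gave a log2 ratio of 0.05 at eel-1 site 1, 0.32 at ubr-5 and -0.04 at hecw-1 site 1. It was 0.77 at wwp-1, 0.78 at eel-1 site 2 and -0.75 at hecw-1 site 2. Over the 1508 thresholded peaks matched in both replicates the median ratio was 0.08, with an SD of 0.60 across peaks and 5th and 95th percentiles of -0.85 and 1.04, so all 6 sites lay inside that range.

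**Figure D3:**
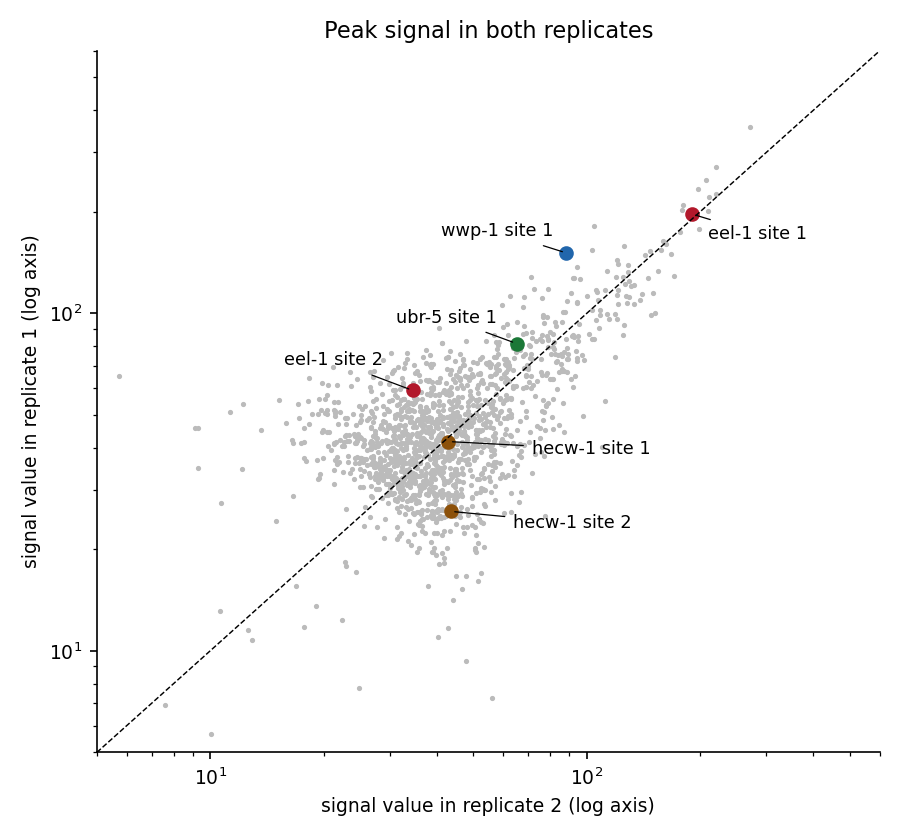
Signal in replicate 1 against replicate 2 (both log axes) for the 1508 thresholded peaks matched in both, with the 6 sites coloured by gene and a dashed line of equal values. The sites at wwp-1 and eel-1 site 2 lie above the line and hecw-1 site 2 lies below it.

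With the thresholded list of both replicates 4 of the 4 genes had a peak, and 6.46% of all protein-coding genes did. With the conservative list the counts were 4 of 4 and 5.94%. With the list of replicate 1 alone 3 of the 4 genes had a peak and 3.06% of all genes did, and with that of replicate 2 alone 3 of 4 and 3.10%. In both cases the 3 were eel-1, wwp-1 and ubr-5. Of the 6 sites, 3 overlapped a thresholded peak of each replicate (eel-1 site 1, wwp-1 and ubr-5), against 23.4% of all 1694 peaks. These counts follow from how the genes were chosen and are printed only for scale.

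The strongest sites at eel-1 and wwp-1 were also narrow. Most peaks in the list, 1587 of 1694, were 290 bp wide, as were 4 of the 6 sites, while eel-1 site 1 was 210 bp and the wwp-1 site 117 bp. The 101 narrower peaks had a median signal of 215, against 76.5 for those of 290 bp. Width is set by the peak caller, and its part in the signal was not tested.

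The other HECT genes listed were hecd-1, herc-1, oxi-1, etc-1 and Y92H12A.2, and 0 of 5 had a thresholded peak of both replicates within 1000 bp of a 5′ end. Over all protein-coding genes the share was 6.46%, and 0 of 5 cannot be told apart from that share. HERC-1 is related to human HERC1. In the ranked list, which holds a peak at 79.5% of all protein-coding genes, 9 of the 9 HECT genes had one. The highest near herc-1 had a signal of 45.99 with a score of 92, higher than that of 81.8% of the 15876 genes with a ranked peak. The highest near hecd-1 was 34.0, near etc-1 30.9, near oxi-1 28.7 and near Y92H12A.2 27.2, against a median of 30.9 over those 15876 genes. For hecw-1, the lowest of the 4, it was 85.0, above 95.7% of them.

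Within each replicate the same split held. The highest peak near the 4 genes had a signal of 41.7 to 197 in replicate 1 and 43.5 to 190 in replicate 2. Near the other HECT genes it was 16.98 (oxi-1) to 22.8 (herc-1) in replicate 1. In replicate 2 it was 19.8 (hecd-1) to 30.5 (herc-1), and oxi-1 had no ranked peak in the window there. The split was part of the choice of the genes. Inside herc-1, a gene of 43235 bp, 2 thresholded peaks lay in introns far from its 5′ ends, with signals of 62.1 and 55.2. The second was also in the nested gene Y48G8AL.13. Values of these 2 herc-1 peaks in the single replicates and the conservative list are not given here. A thresholded peak with a signal of 64.6 lay 1373 bp past the 3′ end of Y92H12A.2.

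**Figure D4:**
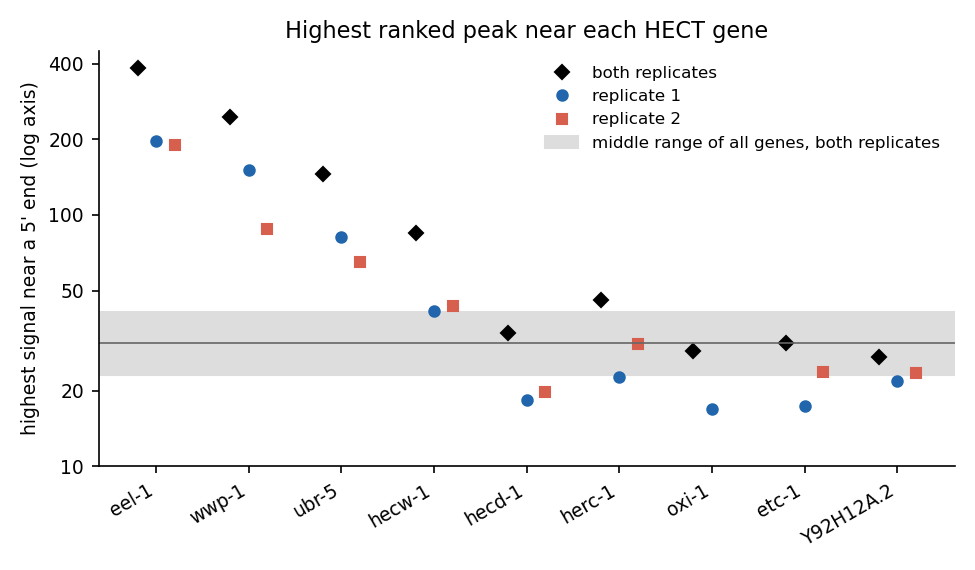
Highest ranked-peak signal (log axis) within 1000 bp of a 5′ end of each of 9 HECT genes, in the list of both replicates (diamonds), replicate 1 (circles) and replicate 2 (squares); the band runs from the lower to the upper quartile, 23.01 to 41.14, of 15876 genes with a peak from both replicates, and the line is their median of 30.9. The diamonds of eel-1, wwp-1, ubr-5, hecw-1 and herc-1, the last at 45.99, lie above the band.

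Other genes with names of the ubiquitin pathway had peaks in part. They were listed by gene name, with earlier results of these data known. Of 72 annotated genes in 5 lists, 12 had a thresholded peak of both replicates, or 16.7%, where all protein-coding genes had 6.46%. The median of the highest ranked signal was 41.1 over the 66 of them with a ranked peak, against 30.9 over the 15876 protein-coding genes with one. Among ubiquitin genes and the activating enzyme, 2 of 3 had a peak: ubq-1, which encodes polyubiquitin, with 137, and ubq-2, a fusion of ubiquitin to a ribosomal protein, with 89.7. The activating enzyme gene uba-1 had none. At ubq-1 the peak of 137 lay 949 bp upstream of a 5′ end, and weaker peaks of 87.8 and 2.72 lay 302 and 100 bp upstream.

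Among E2 genes 5 of 25 had a peak. Among them were ubc-6 with a signal of 170, let-70 with 81.2 and ubc-14 with 59.4. Of 8 cullin and RBX genes, cul-4 had a peak, with 61.7. Of 17 other ligase genes 3 had one: prp-19, whose product is a splicing factor with ligase activity, with 238, brc-1, the BRCA1 relative, with 79.7, and siah-1 with 61.1. The siah-1 peak had 36.4 in replicate 1 and no matched peak in replicate 2. Of 19 annotated deubiquitinating enzyme genes, usp-48 had one, with 108. In the list of both replicates the eel-1 signal of 385 and the wwp-1 signal of 245 were above all of these, with prp-19 close to wwp-1. The wwp-1 peak was above that of prp-19 in replicate 1 as well, but below it in replicate 2. Since eel-1 and wwp-1 were chosen by their peaks, this order is only a description.

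The repeat under the eel-1 peaks is found elsewhere under peaks too. Cut into words of 30 bases, site 1 has 69.6% of its words once in the genome and site 2 60.5%, where the median thresholded peak has 100% and 71.5% of peaks reach that. The commonest word of either occurs 65 times. All 30 words that cover the summit occur once in the genome at each eel-1 site. At 16 other thresholded peaks a word of an eel-1 site was found, on 5 chromosomes, with signals of 68.1 to 325 and a median of 108. Of these 14 had a summit at most 1000 bp from the 5′ end of a protein-coding gene, and 6 were among the 169 strongest of the 1694 thresholded peaks. The share of all 1694 peaks that near a 5′ end is not given here. The 14 therefore cannot be read as more or fewer than in the list as a whole. The words with more than 2 copies lie at 43 places in the genome, taking words up to 1000 bp apart as 1 place. Of these places, eel-1 included, 37.2% were overlapped by a thresholded peak of both replicates. The labels and headers do not record how reads from repeats were aligned, and its part in the signal was not tested.

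The transfer RNA gene under hecw-1 site 1 also has copies, 25 in the genome with exactly its sequence. Of these 25, C56G7.t1 itself included, a thresholded peak of both replicates overlapped 9, or 36.0%. Over all 46 lysine transfer RNA genes the share was 32.6%, and over all 612 transfer RNA genes it was 22.4%. The site shared a word of 30 bases with 9 other thresholded peaks, all on a lysine transfer RNA gene, with signals of 63.4 to 108. Of its words 77.8% occur once in the genome, and of the 30 that cover the summit 25 do. At wwp-1 and ubr-5 100% of the words occur once, and at hecw-1 site 2 98.9%. The 17-base stretch marked in hecw-1 site 2 nonetheless occurs 10 times in the genome. By the lower-case masking of repeats in the RefSeq genome, hecw-1 site 2 was 72.1% masked, eel-1 sites 1 and 2 were 56.7% and 81.0%, hecw-1 site 1 was 31.0%, ubr-5 27.9% and wwp-1 0%. The median thresholded peak was 24.6% masked.

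**Figure D5:**
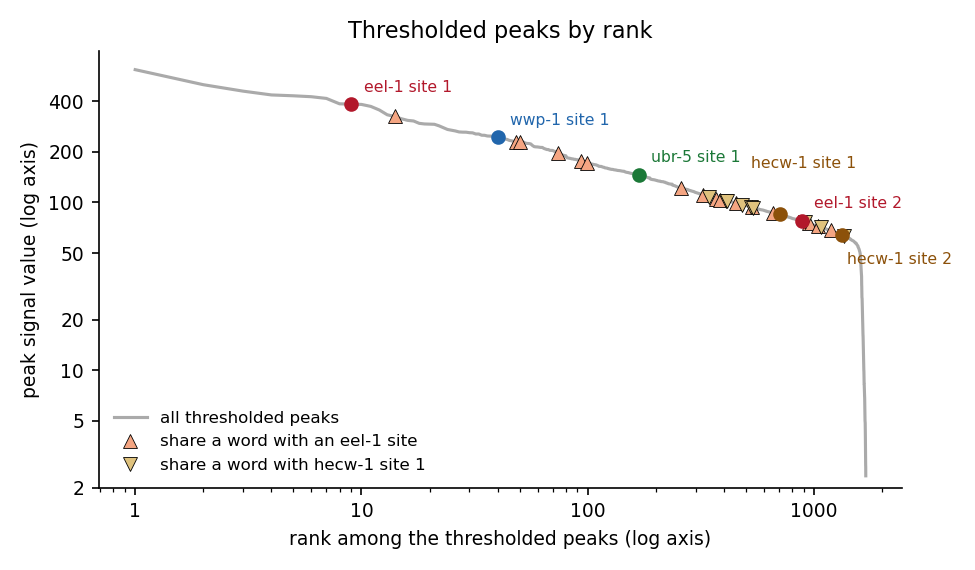
Signal of the 1694 thresholded peaks by rank (both log axes, grey line), with the 6 sites as dots, the 16 other peaks that share a 30-base word with an eel-1 site as upward triangles and the 9 that share one with hecw-1 site 1 as downward triangles. The upward triangles run from a signal of 325 to 68.1, and the downward ones lie between 108 and 63.4.

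Of 7 short words searched on both strands within 50 bp of a summit, the 6 sites held few. The word CTGCGTCTC was found once at ubr-5, and 4.72% of the 1694 peaks and 0.986% of the upstream windows described above hold it. The word GAGAGA was found 5 times at ubr-5, with overlaps, and is in 12.6% of peaks and 7.47% of upstream windows. At hecw-1 site 1 the word GGGCGG was found, which is in 5.08% and 2.28%. The word CGCGC was found 8 times at ubr-5 and 3 times at wwp-1, with overlaps, and is in 23.6% and 5.85%. Within 50 bp of the summit none of the 6 sites held TATAAA, which is in 6.14% of peaks and 13.1% of upstream windows. The same was true of TTTCAG, with shares of 10.4% and 16.9%, and of CACGTG, with 3.54% and 1.53%. The eel-1 sites and hecw-1 site 2 held 0 of the 7 words within 50 bp of the summit. Farther from the summit, the peaks of eel-1 site 1 and hecw-1 site 2 held TTTCAG, and that of hecw-1 site 2 also held TATAAA. The peak of hecw-1 site 1 held CGCGC 4 times there.

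The base composition of the sites was uneven. Within 50 bp of the summit, hecw-1 site 2 was 20.8% G and C, far under the others, which were 46.5% (wwp-1) to 53.5% (eel-1 site 1). The median over all thresholded peaks was 45.5%, with quartiles of 38.6% and 52.5%. The tagged gene itself, zfr-1, had 0 peaks within 1000 bp of its 5′ end in every list.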

How the data were processed

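Per the file headers, the authors called peaks on ce11 for replicate 1, replicate 2 and both together, and ranked and thresholded each set by IDR. The signal per peak and the score are the authors' deposited values, and their ranked lists, as deposited, hold the −log10 of the IDR, from which the score follows. The aligner and peak caller were not given in the sources used here. The thresholded list of both replicates (1694 peaks) was the main list. Summits were placed against Ensembl release 115 (WBcel235), with symbols from RefSeq for 19965 of 19973 genes. A site was matched to another list by summits within 100 bp. Words of 30 bases were counted in the genome on both strands. Python 3.11.15, numpy 2.4.6, pandas 2.3.3 and matplotlib 3.10.9 were used, and assignment and word counts were tested on simulated data. Depth and counting error are unknown. The 4 genes, the ubiquitin lists and the rules for naming genes (the HECT genes, their neighbours, 3 ranks on each side of the top site, listed genes with a peak) were chosen with earlier results of these data known. No test was made, since 2 samples form 1 group. Alternatives changed the window, the 5′ ends, the list, the threshold and the replicate. A gene named duo-2 was not found in the annotation, and the values of 2 listed genes with a peak are not reported here.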

Additional observations from a re-analysis of the deposited data

How the results depend on the processing

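No paired analysis was possible because both samples belong to 1 group and no result comes from a test. The count of 4 genes with a peak stayed at 3 or 4 under every other window, list, threshold and 5′ end rule tried; a window of 500 bp lost ubr-5, the nearest-gene rule lost hecw-1, and each replicate's own list lost hecw-1. Leaving out each replicate gave 3 and 3 for the 4 genes, 6 to 7 in place of 12 for the ubiquitin lists, and 612 to 619 in place of 1291 for all genes. With every ranked peak, 5 of 5 other HECT genes, 66 ubiquitin genes and 15876 of all genes had a peak. A window of 2000 bp gave 19 ubiquitin genes and 1872 of all genes. For all genes the count was 918 with a window of 500 bp, 951 with the nearest-gene rule and 1191 with outermost 5′ ends only. It was 1187 with the conservative list and 983 with a score of 1000 in the ranked list. With only peaks whose 30-base words all occur once in the genome, an alternative chosen after seeing the data, 2 of the 4 genes kept a peak, wwp-1 and ubr-5, while 1033 of all genes did. With only the words over the summit, also chosen then, 4 of 4 did, hecw-1 by its site 2, and 1150 of all genes did. The order of the 4 genes and the matched replicate signals were the same under the alternatives run for them. Peak lists give no read totals, so a missing peak and too little depth cannot be told apart.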
